A study of Mus musculus with 16 samples.

Results

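The tripartite motif (TRIM) genes were examined in RNA-seq of primary mouse astrocytes, in vehicle and after 24 h of LPS + IFNγ, in WT and Nlrx1-/- cultures. Every row of the deposited log2 CPM table whose symbol is Trim followed by a digit was taken, which gave 49 genes of 16707 in the table. Astrocytes had been selected with ACSA2 beads from the brains of postnatal day 6 pups, either WT (C57BL6J) or NLRX1-/-, where the deletion is carried by every cell of the animal. Each of 4 litters per genotype gave 2 wells from the same set of mice, of which one received vehicle (water) and the other 500 ng/mL lipopolysaccharide (LPS), a bacterial cell wall component, with 10 ng/mL IFNγ, the type II interferon. The cells of a litter were pooled, so a litter is the unit of replication (n = 4 per condition, 16 libraries), and each litter held 1 genotype, so that differences between litters or lines and the effect of the deletion cannot be told apart. The labels and the methods give the age as P6, and another passage of the study gives a younger age.

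TRIM proteins share a RING domain, 1 or 2 B-box zinc fingers and a coiled coil, in that order, followed by a C-terminal domain that differs between subgroups. Most are ubiquitin ligases, in which the RING recruits the ubiquitin-conjugating enzyme and the C-terminal domain, often a PRY-SPRY domain, picks the target. Many TRIM genes are induced by interferons, and their products restrict viruses or tune signaling from the RNA and DNA sensors of the cytosol, while others act in chromatin repression, on microtubules or in vesicle and membrane traffic. Interferons of both types signal through STAT proteins, which bind 2 kinds of promoter elements, the interferon-stimulated response element (ISRE) and the gamma-activated site (GAS).

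Of the 49 members, 11 rose by at least 1 on the log2 scale in both genotypes and are called induced here, 16 had a response whose 95% interval lay within 0.5 of 0 in both genotypes and are called flat, and 22 belonged to neither class. Over all 16707 genes, 5.11% met the first rule and 32.7% the second. The values are the deposited log2 CPM, that is the log2 of a gene's count scaled to the size of its library, on which a difference of 1 is a 2-fold change. The induced members were Trim30a, Trim30d, Trim5, Trim14, Trim21, Trim34a, Trim12a, Trim25, Trim34b, Trim12c and Trim66. The flat members were Trim2, Trim3, Trim11, Trim13, Trim23, Trim24, Trim27, Trim28, Trim32, Trim33, Trim37, Trim39, Trim41, Trim44, Trim45 and Trim62. In every one of the 11 induced members the vehicle and LPS + IFNγ libraries did not overlap in either genotype. The rule that chose these members from the same libraries makes such a gap likely, so it is no separate result. Over all genes, 20.2% in WT and 17.6% in Nlrx1-/- were higher with treatment without overlap.

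Salmon assigned between 27259420 and 43752903 read pairs to transcripts in a library. Nlrx1 itself ranged from 4.08 to 4.44 log2 CPM over the WT libraries and from 1.09 to 2.96 over the Nlrx1-/- libraries. All 10 astrocyte markers checked were in the table. Their summed TPM was 4227 to 6867 in WT and 2980 to 4999 in Nlrx1-/- without treatment. With treatment it was 3428 to 5044 in WT and 2692 to 3874 in Nlrx1-/-. Gfap alone averaged 1285 TPM in untreated WT and 505 in untreated Nlrx1-/-. In the same order Aldh1l1 averaged 505 and 543 TPM and Slc1a3 1181 and 1177. Sox9, Aqp4, Slc1a2, S100b, Atp1b2, Aldoc and Gja1 had lower means in untreated Nlrx1-/- than in untreated WT. Of 10 microglial and macrophage markers 2 were in the table. Of these P2ry12 had a mean TPM of 0.215 without and 0.590 with treatment in WT, and of 0.255 without and 1.10 with it in Nlrx1-/-. Aif1, Cx3cr1, Tmem119, Csf1r, Ptprc, Itgam, C1qa and C1qb were not in the table. The summed level of the 5 oligodendrocyte markers was 55.6 to 196 TPM with treatment against 187 to 421 without it in WT and 3.56 to 77.5 against 14.8 to 297 in Nlrx1-/-, ranges that overlap in both genotypes. The 5 precursor markers summed to 1498 to 3162 TPM over all libraries, most of it Olig1. Pdgfra, another of the 5, averaged 40.9 TPM without and 14.1 with treatment in WT, and 26.4 and 7.89 in Nlrx1-/-. Of 6 fibroblast and endothelial markers 4 were in the table, at a summed 2.70 to 15.97 TPM. The 6 neuronal markers summed to 319 to 430 TPM, most of it Map2. Tubb3 averaged 13.3 TPM without and 74.4 with treatment in WT and 10.6 and 69.2 in Nlrx1-/-. Snap25 and Stmn2 also had higher means with treatment in both genotypes. Map2 (332 to 274 TPM in WT, 328 to 326 in Nlrx1-/-), Rbfox3 and Syt1 had lower ones. The part of these cells in the results below was not tested, and fewer cells of a type and less RNA per cell cannot be told apart in bulk RNA.

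A run of 8 members, Trim6, Trim34a, Trim5, Trim12a, Trim34b, Trim12c, Trim30a and Trim30d, lies on chromosome 7, from 103868000 at the start of Trim6 to 104157107 at the end of Trim30d (GENCODE M39, GRCm39). Trim5, Trim12a and Trim12c are rodent relatives of the primate gene TRIM5, whose protein binds the capsids of incoming retroviruses. Because these neighbors arose by duplication and share sequence, the split of reads among Trim5, Trim12a and Trim12c, between Trim34a and Trim34b, and between Trim30a and Trim30d is uncertain. Trim21 and Trim66 also lie on chromosome 7, outside this cluster, at 102207128 to 102214704 and at 109048210 to 109107341, both on the minus strand. Trim25 was annotated on the plus strand of chromosome 11 from 88890202 to 88911122, and Trim14 on chromosome 4 at 46493781 to 46536143, minus strand.

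The promoters of the members were read from RefSeq windows on GRCm38.p6 that run from 250 bases before to 50 bases after an annotated transcript start. Windows were given for 38 of the 49 members, 52 windows in all. No window was given for Trim3, Trim8, Trim11, Trim14, Trim16, Trim17, Trim33, Trim35, Trim36, Trim43c and Trim65. The letters GAAANNGAA, the core of the ISRE, were searched on both strands, as were the letters TTCNNNGAA, the core of the GAS; no 9 bases can match both patterns at once, but matches may overlap in part. The ISRE core was found in 10 of the 11 windows of induced members, that is in 9 of 10 genes, all but Trim66. It was found in 1 of 21 windows of flat members (Trim2) and in 2 of 20 windows of the remaining members (Trim26 and Trim7). Over all 32851 RefSeq windows, 8.56% held it, and so did 19.2% of the windows of the genes called induced by the same rule. Over 55 bases around the match, Trim5 and Trim12a were identical, and Trim12c matched both at 53. A Trim30a window was likewise identical to that of Trim30d over these bases. The 11 windows of induced members therefore include near copies and are not 11 independent promoters. The GAS core was found in 0 of the 11 windows of induced members, against 8.30% of all windows. These matches are descriptions of letters within the windows, and they say nothing of which factor binds there.

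The stretches around the ISRE core of the induced members are shown because they hold the feature that sets these windows apart and because several of the neighboring genes share them almost base for base. Each is written 5′ to 3′ in the direction of the gene, with the match in capitals; TTC at its left end means that the core lies on the opposite strand.
Trim34a (chr7:104244432-104244486, plus strand): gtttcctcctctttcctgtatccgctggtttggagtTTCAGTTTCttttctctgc
Trim5 (chr7:104288136-104288190, minus strand): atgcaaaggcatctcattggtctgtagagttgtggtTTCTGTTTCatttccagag
Trim12a (chr7:104315466-104315520, minus strand): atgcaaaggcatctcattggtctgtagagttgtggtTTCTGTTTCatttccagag
Trim12c (chr7:104353359-104353413, minus strand): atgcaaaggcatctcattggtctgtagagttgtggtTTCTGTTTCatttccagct
Trim34b (chr7:104329224-104329278, plus strand): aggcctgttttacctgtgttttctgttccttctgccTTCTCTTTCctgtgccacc
Trim30a, first start (chr7:104446104-104446158, minus strand): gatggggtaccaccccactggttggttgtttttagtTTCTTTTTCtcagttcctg
Trim30a, second start (chr7:104465210-104465264, minus strand): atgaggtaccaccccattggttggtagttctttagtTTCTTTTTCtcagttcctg
Trim30d (chr7:104507871-104507925, minus strand): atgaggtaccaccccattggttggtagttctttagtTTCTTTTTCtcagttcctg
Trim21 (chr7:102565453-102565505, minus strand): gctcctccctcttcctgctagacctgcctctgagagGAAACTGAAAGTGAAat
Trim25 (chr11:88999358-88999412, plus strand): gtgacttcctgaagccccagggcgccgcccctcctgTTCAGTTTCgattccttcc
Over these 55 bases, compared position by position without gaps, the Trim5 and Trim12a stretches were identical, Trim12c matched both at 53 positions, and the second Trim30a start was identical to Trim30d. Trim21 held 2 overlapping matches, at positions 13 to 27 counted from 0 at the first base of the transcript. In Trim34b the match lay at positions -211 to -203, and in the other induced windows between -48 and 19.

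**Figure D1:**
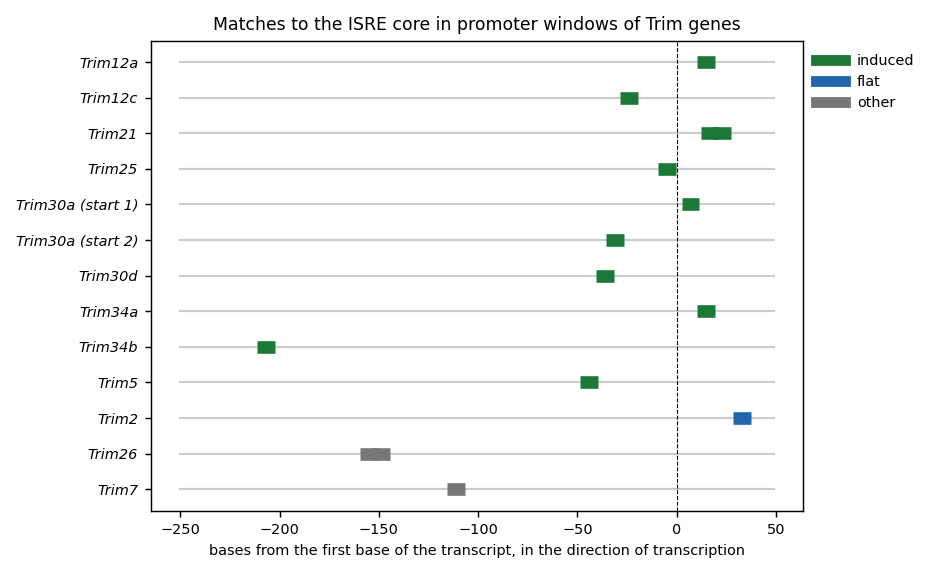
Position of each ISRE core match (colored bar) in the promoter windows that hold one, as bases from the first base of the transcript (dashed line), 1 row per window and both starts of Trim30a shown. In 9 of the 10 induced windows the match lies within 50 bases of the start, and in Trim34b and in the other members with a match upstream of the start, Trim26 and Trim7, it lies over 100 bases before it.

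Levels were compared between genes in TPM as Salmon estimates it, which scales counts to transcript length as well as to library size. This was done for the 43 members of which at least 60% of the reads could be paired with the gene in every library, which leaves out Trim15, Trim27, Trim30a, Trim34b, Trim36 and Trim65. The most abundant member was Trim28 (KAP1), the corepressor that silences retroelements with KRAB zinc finger proteins, at a mean of 169 TPM over the 16 libraries. It was followed by Trim35 (129.5 TPM), Trim8 (94.9 TPM), Trim9 (91.1 TPM), Trim44 (87.3 TPM) and Trim37 (71.3 TPM). None of these 6 was among the induced members. In vehicle, the induced members stood well below them in the same unit. Trim25 averaged 14 TPM in WT vehicle, Trim12a 12.5, Trim21 5.49, Trim30d 2.96 and Trim14 0.186. After LPS + IFNγ, these genes reached 59.3, 67.5, 44, 35.6 and 3.32 TPM in WT, in the same order. TPM depends on the other transcripts of a library, so it was used for the order of genes and not for the responses. At the low end, 5 members, Trim6, Trim43a, Trim69, Trim71 and Trim72, had libraries at the lowest value of the table (-4.13 log2 CPM).

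**Figure D2:**
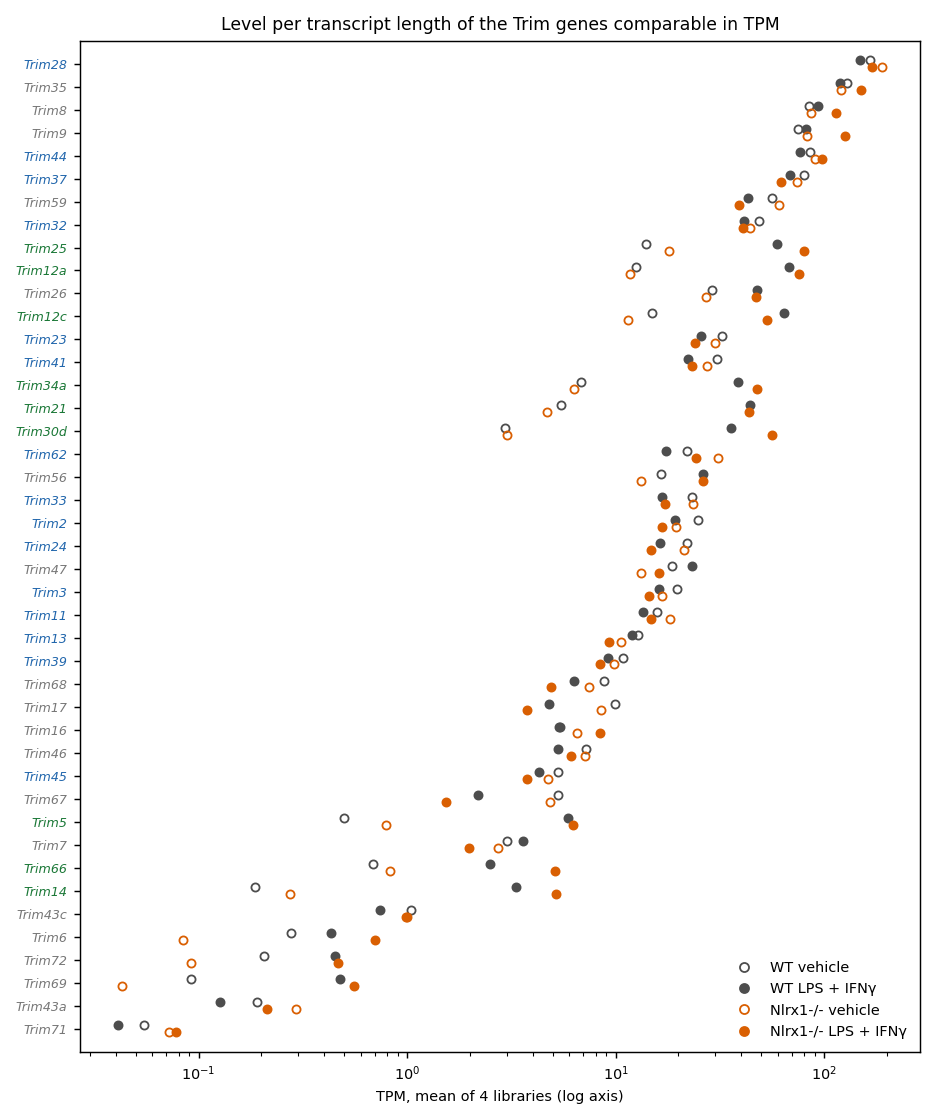
Mean TPM over 4 libraries (log axis) of the 43 members comparable between genes, with WT in gray, Nlrx1-/- in orange, vehicle as open circles and LPS + IFNγ as filled circles; names are green for induced, blue for flat and gray for the other members. Trim28 and Trim35 have the highest means in all 4 conditions, and every induced member shown has a higher mean with LPS + IFNγ than in vehicle in both genotypes.

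The response to LPS + IFNγ was tested within litters over all genes of the table (limma, Benjamini-Hochberg adjusted p under 0.05). In WT astrocytes 17 of the 49 members rose and 6 fell, where 24.9% of all genes rose and 21.9% fell. In Nlrx1-/- astrocytes 22 members rose and 8 fell, where 26.6% of all genes rose and 25.5% fell. The median response was 0.10 in WT and 0.16 in Nlrx1-/- over the members, against -0.02 in both genotypes over all genes. The highest and lowest responses were those of Trim30a and Trim36 in both genotypes. In WT, the vehicle and LPS + IFNγ libraries did not overlap in 15 members that were higher with treatment and 8 that were lower, against 20.2% and 17.6% of all genes. In Nlrx1-/- this held for 17 and 7 members, against 17.6% and 14.4% of all genes.

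**Figure D3:**
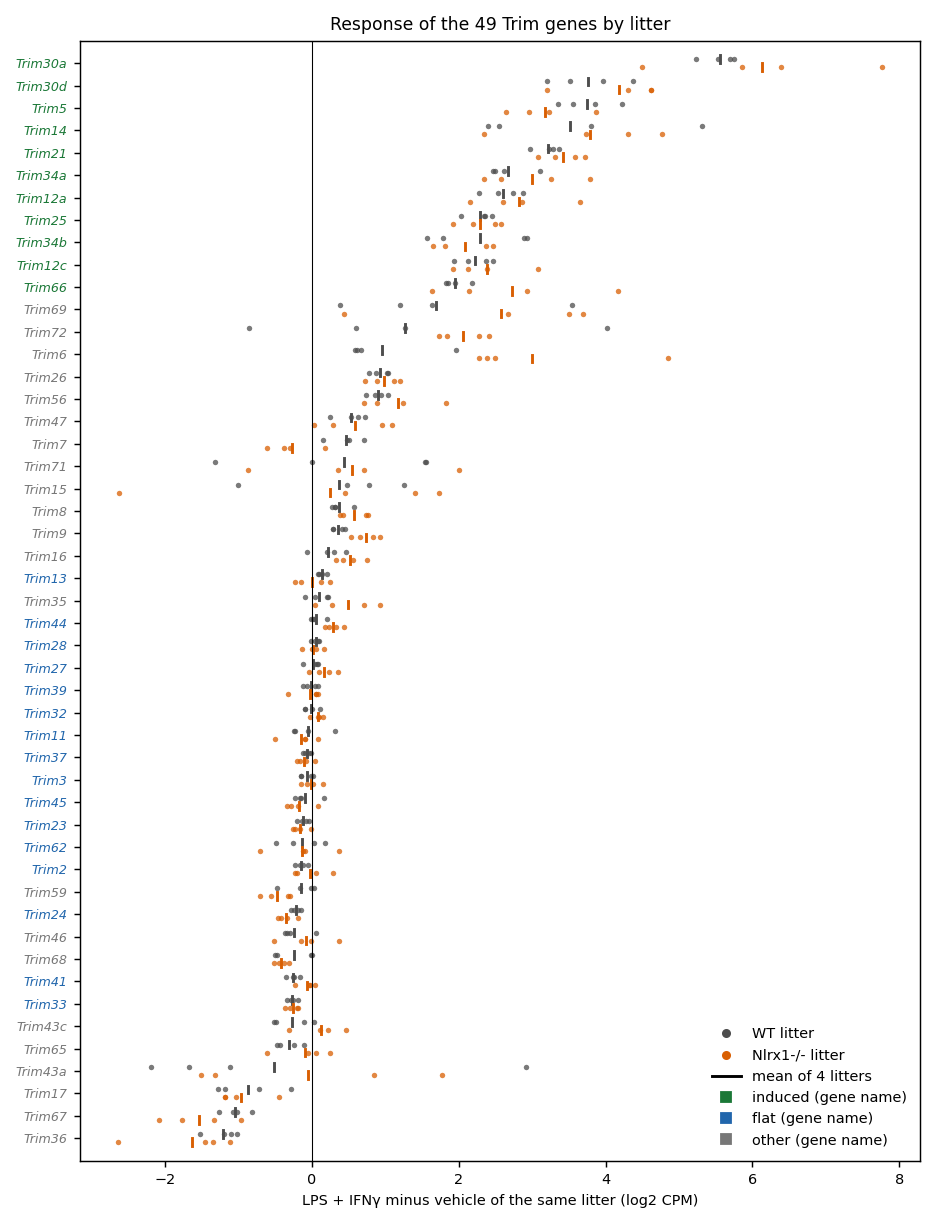
Response of each of the 49 members in each litter, as the log2 CPM with LPS + IFNγ minus that of the vehicle library of the same litter, with WT litters in gray and Nlrx1-/- litters in orange (dots) and the mean of 4 litters as a bar; names are colored by class. The members from Trim30a to Trim66 lie to the right of 1 in all 8 litters, and the flat members stay close to 0.

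Trim30a, which restrains Toll-like receptor signaling by promoting the loss of TAB2 and TAB3, had the largest response of the family. Its level in the 4 WT litters was 0.99, 1.94, 1.41 and 1.85 log2 CPM in vehicle and 6.69, 7.48, 6.65 and 7.60 with LPS + IFNγ. In the Nlrx1-/- litters it was 1.20, 0.83, 1.99 and 2.31 in vehicle and 7.05, 8.60, 6.48 and 8.71 with LPS + IFNγ. All 8 treated libraries lay over 4 units above all 8 vehicle libraries, and the treated Nlrx1-/- libraries were more spread than the treated WT libraries, with litters 2 and 4 highest. The response was 5.56 in WT (SE 0.35, limma adjusted p = 1.37e-07) and 6.13 in Nlrx1-/- (SE 0.35, limma adjusted p = 5.24e-08). The SE of a response is estimated from both genotypes together, so it is the same in both. The SD of the 4 litter responses of Trim30a was 0.23 in WT and 1.355 in Nlrx1-/-. Its neighbor Trim30d rose from 1.52, 2.79, 1.67 and 1.95 to 5.48, 6.30, 4.87 and 6.33 log2 CPM in the WT litters and from 1.90, 2.36, 1.62 and 2.59 to 6.20, 6.98, 4.82 and 7.20 in the Nlrx1-/- litters. These were responses of 3.76 ± 0.23 and 4.18 ± 0.23 (± SE here and in the following), and litter 3 was the lowest treated library in both genotypes, as it was for Trim30a. The 2 genes share the stretch around the ISRE core shown above.

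The TRIM5 relatives rose together. Trim5 was at -1.74, -0.46, -1.72 and -0.11 log2 CPM in WT vehicle and at 2.48, 3.10, 2.15 and 3.24 in WT LPS + IFNγ. In Nlrx1-/- it was at 0.08, -0.85, -1.17 and 0.55 and 3.04, 3.03, 2.06 and 3.20. The vehicle libraries were widely spread in both genotypes and overlapped between them, as did the treated libraries. The response of Trim5 was 3.75 ± 0.24 in WT and 3.18 ± 0.24 in Nlrx1-/-, and the difference between these responses was -0.57 with a 95% interval from -1.32 to 0.17. Trim12a rose from 3.51 ± 0.42 to 6.11 ± 0.59 log2 CPM in WT (mean ± SD, n = 4) and from 3.46 ± 0.51 to 6.27 ± 0.74 in Nlrx1-/-. Trim12c rose from 4.70 ± 0.25 to 6.93 ± 0.13 in WT and from 4.29 ± 0.44 to 6.67 ± 0.10 in Nlrx1-/-, and in both genes the groups did not overlap. With treatment, every Nlrx1-/- library of Trim12c (6.54, 6.76, 6.66 and 6.73) was below every WT library (6.78, 7.03, 6.86 and 7.04), a difference of -0.25 that did not pass the test (limma adjusted p = 0.327). These 3 genes may share reads, as said above.

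Trim34a, whose human counterpart acts on retroviral capsids together with TRIM5, rose from 2.77, 3.36, 2.59 and 3.0 to 5.26, 5.97, 5.05 and 6.10 log2 CPM in the WT litters and from 3.12, 2.59, 2.50 and 3.22 to 5.71, 6.38, 4.84 and 6.48 in the Nlrx1-/- litters. The groups did not overlap in either genotype. Trim34b was at 1.22, 1.65, 2.15 and 1.03 in WT vehicle and 4.14, 3.22, 3.94 and 3.92 in WT LPS + IFNγ, and at 0.44, -0.02, 1.5 and 0.56 and 2.10, 2.36, 3.97 and 2.38 in Nlrx1-/-. Treated Nlrx1-/- litters 1, 2 and 4 of Trim34b lay below all treated WT libraries, and litter 3, at 3.97, lay among the WT values. The response was of like size in both genotypes (2.29 ± 0.24 in WT and 2.08 ± 0.24 in Nlrx1-/-), with a difference between them of -0.21 (95% interval from -0.97 to 0.54). The Nlrx1-/- level minus the WT level was -0.89 in vehicle (limma adjusted p = 0.213) and -1.10 with LPS + IFNγ (limma adjusted p = 0.0801), neither past the threshold. Of the reads of Trim34b, at most 13.8% could be paired with the gene from the transcript files in a library, so its summed counts hold few of its reads. The one test on counts that kept the gene, edgeR without a count filter, called neither response.

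Trim6, at the other end of the cluster, makes unanchored ubiquitin chains that activate IKKε in interferon signaling. It was close to the detection limit, with 0 to 58 reads in a library. Its levels were -0.94, -0.57, -0.76 and -2.67 log2 CPM in WT vehicle, -0.27, 0.05, -0.18 and -0.71 in WT LPS + IFNγ, -2.20, -2.22, -1.81 and -4.13 in Nlrx1-/- vehicle and 0.18, 0.28, 0.47 and 0.72 in Nlrx1-/- LPS + IFNγ. The treated and vehicle groups overlapped in WT and were apart in Nlrx1-/-, and litter 4 had the lowest vehicle library in both genotypes. The response was 0.96 ± 0.46 in WT, which did not pass (limma adjusted p = 0.112), and 3.0 ± 0.46 in Nlrx1-/- (limma adjusted p = 0.000198). The difference between the responses, 2.04 with a 95% interval from 0.61 to 3.48, was the largest of the 49 members and did not pass over all genes (limma adjusted p = 0.184). Over the 8 cluster members the median response was 2.64 in WT, where 7 rose, and 3.0 in Nlrx1-/-, where 8 rose. Of all genes, 24.9% rose in WT and 26.6% in Nlrx1-/-. The cluster members share sequence and may share reads, so they are not 8 independent measures.

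Among the induced members outside the cluster, Trim21, a cytosolic receptor for the Fc part of antibodies that marks antibody-bound particles for destruction, rose in all 8 litters. It was at 2.60, 2.69, 2.88 and 2.74 log2 CPM in WT vehicle and at 5.89, 5.91, 5.86 and 6.10 in WT LPS + IFNγ, and at 2.15, 2.45, 2.43 and 3.08 and 5.86, 6.03, 5.75 and 6.16 in Nlrx1-/-. The treated libraries of the 2 genotypes overlapped, and the response of 3.21 ± 0.11 in WT and 3.42 ± 0.11 in Nlrx1-/- had the smallest adjusted p of the family in both (limma, 3.25e-10 and 1.76e-10). Trim25, the ligase that modifies the RNA sensor RIG-I and also transfers ISG15, was at 5.01, 5.29, 5.18 and 5.28 in WT vehicle and 7.37, 7.64, 7.21 and 7.73 in WT LPS + IFNγ. In Nlrx1-/- it was at 5.43, 5.74, 5.35 and 5.90 and 7.62, 8.31, 7.28 and 8.39, so that all Nlrx1-/- vehicle libraries were above all WT vehicle libraries. Its response was 2.30 ± 0.10 in WT and 2.30 ± 0.10 in Nlrx1-/-, and the Nlrx1-/- level exceeded the WT level by 0.41 in vehicle (limma adjusted p = 0.257) and by the same amount with LPS + IFNγ (limma adjusted p = 0.19), neither past the threshold.

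Trim14, a member without a RING domain that acts as an adaptor of MAVS on mitochondria, rose from near the detection limit (0 to 12 reads in a vehicle library) to 91 to 564 reads in a treated one. Its levels in WT were -0.68, -1.56, -1.22 and -2.41 log2 CPM in vehicle and 1.72, 2.24, 1.33 and 2.91 with LPS + IFNγ, and in Nlrx1-/- -2.79, -0.48, -0.46 and -1.09 and 1.51, 3.25, 1.89 and 3.68. The litters differed widely, with responses from 2.35 to 5.32, and the mean response was 3.51 ± 0.48 in WT and 3.79 ± 0.48 in Nlrx1-/-. Trim66, a chromatin cofactor of the TIF1 group and the induced member with the smallest WT response, was at 1.86, 1.48, 2.03 and 1.88 in WT vehicle and 3.71, 3.65, 3.85 and 3.84 in WT LPS + IFNγ, and at 2.13, 2.34, 2.41 and 1.16 and 4.27, 5.27, 4.05 and 5.33 in Nlrx1-/-. The treated Nlrx1-/- libraries were all above the treated WT libraries, with litters 2 and 4 about 1 unit above litters 1 and 3. That difference, 0.97 (95% interval from 0.35 to 1.59), stood at the threshold (limma adjusted p = 0.0502).

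**Figure D4:**
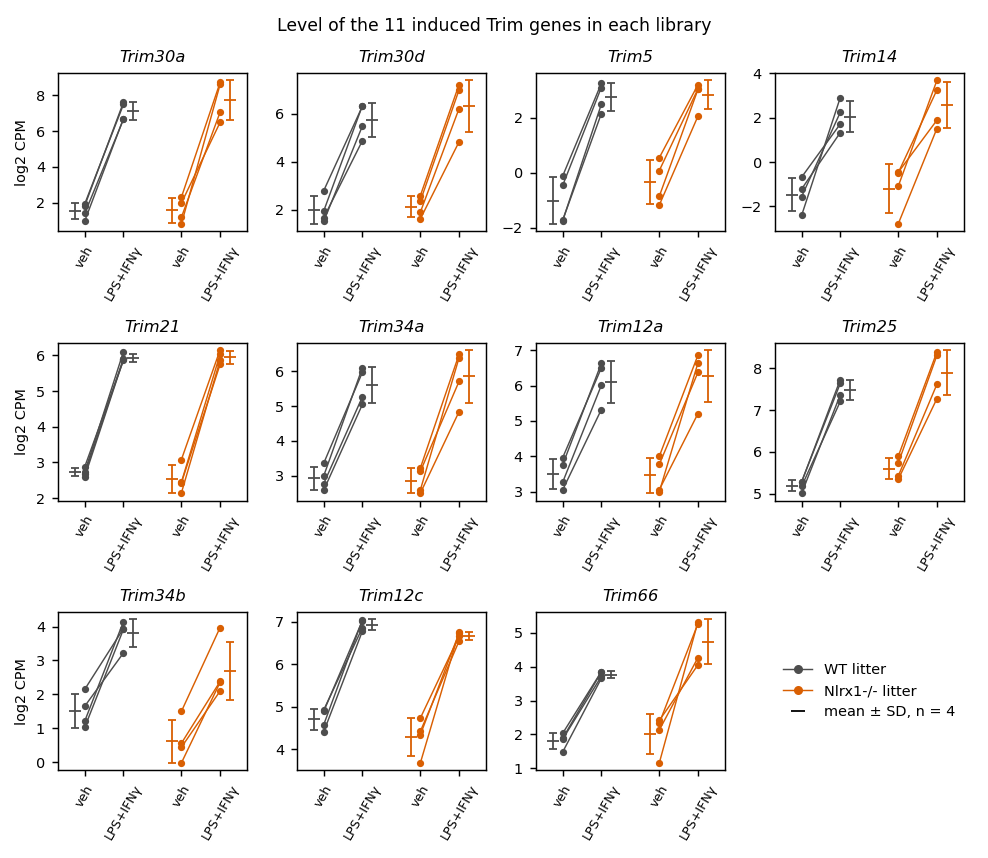
Level (log2 CPM) of the 11 induced members in each library, with a line joining the vehicle (veh) and LPS + IFNγ libraries of a litter, WT in gray and Nlrx1-/- in orange, and the mean ± SD of 4 litters beside the points; each panel has its own scale. Every line rises, and the treated Nlrx1-/- libraries of Trim30a, Trim30d, Trim25 and Trim66 spread more widely than the treated WT libraries.

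The litters kept a similar order over the induced members. Litter 3 had the smallest response of its genotype in 8 of the 11 induced members in WT and in 8 of 11 in Nlrx1-/-, although no source used here ties a litter of one genotype to the litter of that number in the other. The study describes cultures of both genotypes from pups of the same birth day. Across genes, Pearson's r between the litters numbered 3 was 0.18 in vehicle and 0.15 with LPS + IFNγ. Over all same-numbered pairs it ran from -0.09 to 0.18, with a median of -0.01. Why litter 3 was low in both genotypes was not tested. The largest response was that of litter 4 in 7 of 11 in WT and of litter 2 in 7 of 11 in Nlrx1-/-. The median response of the 11 ranged from 2.46 to 3.10 over the WT litters and from 2.35 to 3.65 over the Nlrx1-/- litters. The members share their libraries, so this order is that of 8 litters and not of 11 independent measures.

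Just outside the induced rule stood Trim26, known to limit nuclear IRF3, and Trim56, which modifies the DNA sensing adaptor STING. Trim26 was at 5.46, 5.46, 5.44 and 5.42 log2 CPM in WT vehicle and 6.32, 6.50, 6.21 and 6.44 in WT LPS + IFNγ, and rose by 0.92 ± 0.08 there and by 0.98 ± 0.08 in Nlrx1-/-. Trim56 rose by 0.89 ± 0.14 in WT and 1.17 ± 0.14 in Nlrx1-/-. Just inside the rule, the lowest values were those of Trim66 in WT and Trim34b in Nlrx1-/- given above. Trim69, an interferon-induced gene known to restrict a rhabdovirus, had at most 36 reads in a library; its response was 1.69 ± 0.67 in WT (limma adjusted p = 0.0557) and 2.58 ± 0.67 in Nlrx1-/- (limma adjusted p = 0.00656). Of the 14 members on the list of interferon-linked TRIM genes, 12 rose in WT and 14 in Nlrx1-/-, against 24.9% and 26.6% of all genes, 0 fell in either, and their median response was 2.45 and 2.91. The list follows their known biology but was drawn up with earlier results of these data known, so it is not independent evidence of the direction. Trim66 was the 1 induced member not on that list.

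Outside the interferon-linked list, smaller increases were found in several abundant members. Trim8, a regulator of cytokine signaling through SOCS1 and TAK1, rose from 7.05 ± 0.20 to 7.41 ± 0.24 log2 CPM in WT (mean ± SD, n = 4) and from 7.14 ± 0.26 to 7.72 ± 0.32 in Nlrx1-/-, a response of 0.37 and 0.58. Trim9, a brain-enriched ligase that acts in netrin-guided axon growth, rose by 0.36 ± 0.06 and 0.74 ± 0.06. Trim47 also rose in both (0.53 and 0.59). Trim35, the second most abundant member, was called in Nlrx1-/- (0.49 ± 0.11) and not in WT (0.10 ± 0.11), with a difference between the responses of 0.39 (95% interval from 0.04 to 0.75) that did not pass (limma adjusted p = 0.26). Trim16 and Trim72, which act in the repair of damaged membranes, were likewise called in Nlrx1-/- alone, and the difference between the genotypes did not pass for either (limma adjusted p = 0.375 and 0.701).

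The largest decreases were in 2 members of the COS box group, whose shared motif targets them to microtubules. Trim67, a neural member closely related to Trim9, fell from 4.64, 4.79, 4.52 and 4.31 log2 CPM to 3.57, 3.52, 3.50 and 3.50 in the WT litters and from 4.66, 4.63, 4.35 and 4.37 to 3.33, 2.85, 3.38 and 2.29 in the Nlrx1-/- litters. Vehicle and treated libraries did not overlap, and the treated Nlrx1-/- libraries were all below the treated WT libraries. The response was -1.05 ± 0.15 in WT and -1.54 ± 0.15 in Nlrx1-/-. Neither the difference between the responses, -0.49 (limma adjusted p = 0.279), nor that between the treated genotypes, -0.56 (limma adjusted p = 0.0677), passed the test. Trim36 fell from 2.06, 2.06, 1.64 and 2.36 to 0.53, 1.05, 0.55 and 1.16 in the WT litters, a response of -1.21 ± 0.25, and by 1.64 ± 0.25 in Nlrx1-/-. None of the tests on counts called Trim36. In the library with the lowest share 6.27% of its reads could be paired with the gene, while in the median library all of them could. Trim9, of the same group, moved the other way, and Trim46, which bundles microtubules at the start of the axon, was not called. Trim17, a ligase known from neuronal apoptosis, fell by 0.87 ± 0.18 in WT and by 0.96 ± 0.18 in Nlrx1-/-.

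The TIF1 group of chromatin regulators was split. Trim66 was induced, Trim24 and Trim33, cofactors of nuclear receptors and of SMAD4, fell slightly in both genotypes, and Trim28 was flat. Trim24 changed by -0.22 ± 0.06 in WT and -0.35 ± 0.06 in Nlrx1-/-, and Trim33 by -0.27 ± 0.05 and -0.26 ± 0.05. Both are flat by the rule above although they passed the test, since their intervals lie within 0.5 of 0. Trim28 was at 8.17, 8.0, 7.98 and 7.94 log2 CPM in WT vehicle and 8.26, 8.04, 8.07 and 7.92 in WT LPS + IFNγ, with a response of 0.05 (95% interval from -0.06 to 0.16) there and 0.02 (95% interval from -0.09 to 0.13) in Nlrx1-/-.

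Among the 16 flat members, whose responses lay between -0.27 and 0.13 in WT and between -0.35 and 0.29 in Nlrx1-/-, 0 rose and 3 fell (Trim24, Trim33 and Trim41) in WT, while 1 rose (Trim44) and 3 fell (Trim23, Trim24 and Trim33) in Nlrx1-/-. Trim37, a MATH domain ligase of peroxisomes and centrioles, was at 7.49 ± 0.08 and 7.43 ± 0.08 log2 CPM in WT (mean ± SD, n = 4) and at 7.40 ± 0.20 and 7.30 ± 0.13 in Nlrx1-/-. Of the 4 members with NHL repeats, Trim2, Trim3 and Trim32 were flat and Trim71, a gene of early stem cells, was near the detection limit, and none was called in either genotype. Both transmembrane members, Trim13 of the endoplasmic reticulum and Trim59, were uncalled in WT, and Trim59 fell by 0.47 ± 0.09 in Nlrx1-/-. Of the 22 members in neither class, 6 rose and 3 fell in WT, against 24.9% and 21.9% of all genes, and 10 rose and 5 fell in Nlrx1-/-, against 26.6% and 25.5%. The classes were formed from these same responses, so the counts within the flat and remaining members are shaped by the rule. All genes, which were not sorted in this way, are no like set for them.

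Whether the response differs between the genotypes was asked with the genotype by treatment interaction. It was called for 0 of the 49 members and for 0% of all genes in either direction (limma), with 7 members at an unadjusted p under 0.05 and a lowest adjusted p of 0.164, for Trim9. The 0% holds for limma on log2 CPM. The study itself tested this interaction with DESeq2 and reported genes called in both directions at the same threshold. With edgeR on counts 0 members were called and with DESeq2 1 was, Trim9. The interaction of Trim9 was 0.38 (95% interval from 0.19 to 0.58), with litter responses of 0.41, 0.45, 0.28 and 0.28 in WT and 0.66, 0.84, 0.53 and 0.93 in Nlrx1-/-, so that every Nlrx1-/- litter responded more than every WT litter. For the induced members the intervals leave room for differences of up to about 1 unit or more in several genes. They ran from -0.52 to 1.66 for Trim30a and from -1.21 to 1.76 for Trim14, and were narrow for Trim25, from -0.30 to 0.30. Over the 11 induced members the median interaction was 0.21, and over all genes it was -0.01.

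The genotypes were then compared within each treatment, on the same libraries as the responses above. In vehicle, 0 members differed (limma), with 8 at an unadjusted p under 0.05 and a lowest adjusted p of 0.119, where 0% of all genes were called higher and 0.00599%, a single gene, lower in Nlrx1-/-. EdgeR and DESeq2 on counts also called 0 members. Trim11, Trim25 and Trim28 were higher in all Nlrx1-/- vehicle libraries than in all WT vehicle libraries, and 0 members were lower in all of them. Over all genes 6.02% were higher and 3.43% lower in this way, a share of higher genes like that of the members. With LPS + IFNγ, 3 members were called higher in Nlrx1-/- (Trim9, Trim44 and Trim27) and 1 lower (Trim7), where 4.4% of all genes were called higher and 4.41% lower, a share like that of the members. The libraries of the genotypes did not overlap in 6 members that were higher and 5 that were lower in Nlrx1-/-, against 7.09% and 6.23% of all genes.

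Trim9 showed the clearest of these differences. Its treated levels were 8.16, 8.0, 7.98 and 8.01 log2 CPM in WT and 8.59, 8.88, 8.63 and 8.52 in Nlrx1-/-, and its vehicle levels 7.76, 7.55, 7.70 and 7.73 in WT and 7.93, 8.04, 8.09 and 7.60 in Nlrx1-/-. The treated groups did not overlap, while the vehicle groups did through litter 4 of Nlrx1-/-. The difference was 0.62 ± 0.10 with LPS + IFNγ (limma adjusted p = 0.0349) and 0.23 ± 0.10 in vehicle (limma adjusted p = 0.196). Trim44, a RING-less member with a zinc finger of the ubiquitin protease type, was at 7.98, 7.74, 7.84 and 7.74 in treated WT and 8.12, 8.37, 7.99 and 8.30 in treated Nlrx1-/-, and Trim27, which acts in endosomal traffic, at 5.89, 5.72, 5.73 and 5.51 and 6.14, 6.16, 5.99 and 6.02. In both genes the lowest Nlrx1-/- library was just above the highest WT library, with a difference of 0.37 for each gene (limma adjusted p = 0.035 and 0.0369). At most 5.69% of the reads of Trim27 could be paired with the gene, so the tests on counts do not bear on it. Trim7, a ligase first found as a partner of glycogenin, was at 1.97, 2.13, 2.59 and 2.61 in treated WT and 1.60, 1.20, 1.84 and 1.37 in treated Nlrx1-/-, a difference of -0.82 ± 0.22 (limma adjusted p = 0.0386). It was the 1 member called up in WT alone (0.46, limma adjusted p = 0.048), with a response of -0.28 in Nlrx1-/- that was not called. That WT call was lost when any 1 WT litter or Nlrx1-/- litter 1 or 2 was left out, with each of the 4 tests on counts and without the litter block.

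These 4 calls depend on the litters included, although each difference kept its sign with any 1 litter left out. It ran from 0.54 to 0.66 for Trim9, 0.31 to 0.44 for Trim44, 0.30 to 0.42 for Trim27 and -0.94 to -0.72 for Trim7. EdgeR and DESeq2 on counts called Trim9, Trim44 and Trim7 too, while edgeR without a count filter called only Trim9 of the 4. All 4 were lost when WT litter 2, 3 or 4 or Nlrx1-/- litter 2 was left out, or when only the 8 treated libraries were fitted, and without Nlrx1-/- litter 4 only Trim9 was called. Without Nlrx1-/- litter 3 the count rose to 10 higher and 5 lower. In treated cultures, Nlrx1-/- litters 2 and 4 lay farther from WT than litters 1 and 3 in Trim30a, Trim30d, Trim25, Trim66, Trim35 and Trim67.

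**Figure D5:**
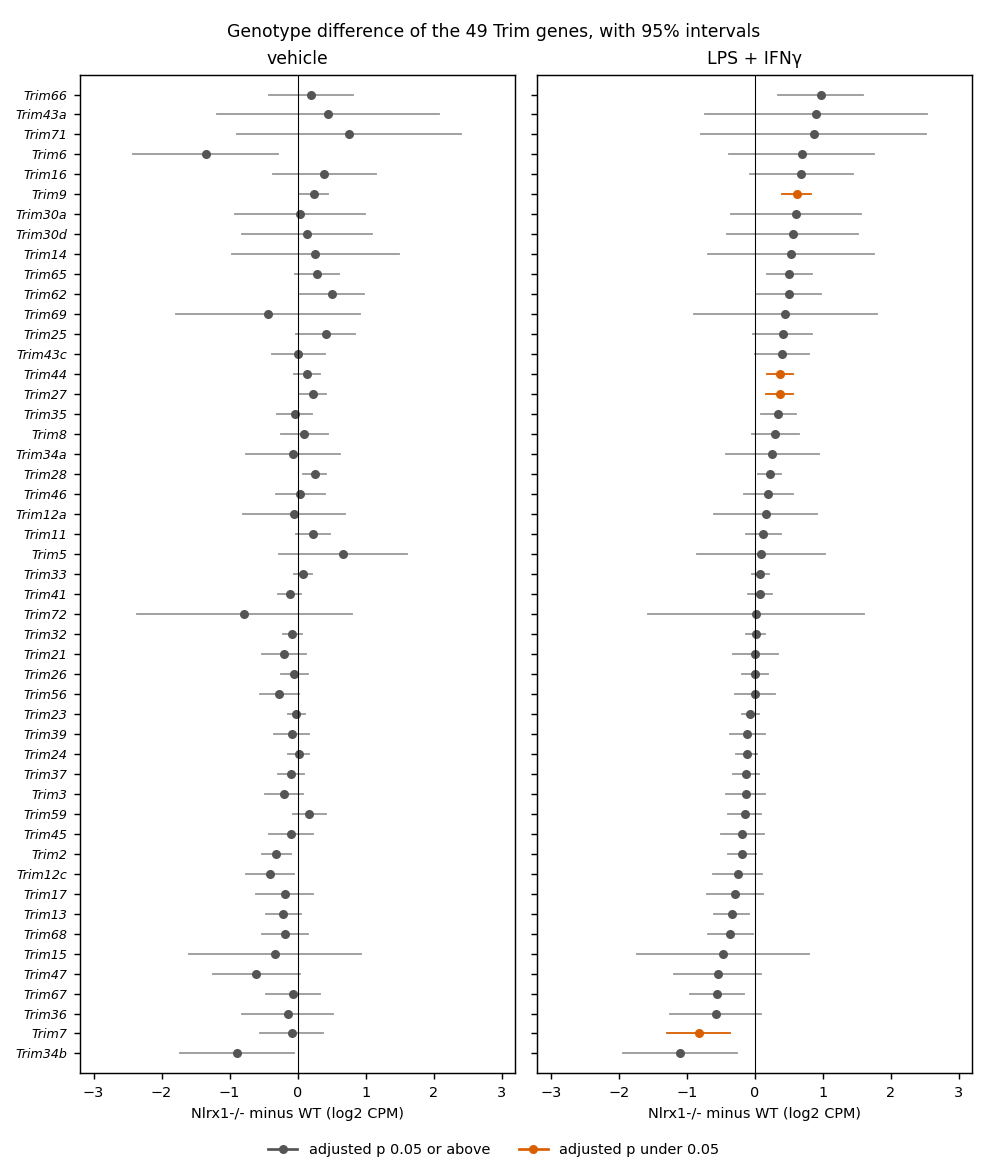
Nlrx1-/- minus WT level (log2 CPM) of each member in vehicle (left) and in LPS + IFNγ (right), as the fitted difference (dot) with its 95% interval (line); orange marks an adjusted p under 0.05 over all genes. On the right Trim9, Trim44 and Trim27 lie above 0 and Trim7 below it, no member is called on the left, and the widest intervals belong to members near the detection limit such as Trim71, Trim72 and Trim43a.

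The genes that work with TRIM proteins gave a setting for these values. On a list of 26 sensors, adaptors, transcription factors and ubiquitin or ISG15 enzymes, all in the table and chosen with earlier results of these data known, 17 rose and 1 fell in WT, where 24.9% and 21.9% of all genes did, and 20 rose and 0 fell in Nlrx1-/-, where 26.6% and 25.5% did. Isg15, the ubiquitin-like protein that Trim25 can transfer, rose by 7.08 in WT and 6.46 in Nlrx1-/-, and its activating enzyme Uba7 by 6.94 and 7.29. RIG-I (Ddx58 in the table), the target of Trim25, rose by 2.39 and 2.83. Traf6 was the 1 gene of the list that fell in WT (-0.18), whereas Mavs and Irf3 were not called in either genotype. In the comparison of treated genotypes 2 of the 26 were called, Sting1 (1.54, limma adjusted p = 0.0366) and Ube2d3 (0.31, limma adjusted p = 0.0349), both higher in Nlrx1-/-, where 4.4% of all genes were called higher. Of 4 TRIM proteins whose genes have other names, 3 were in the table; Pml, the core of nuclear bodies, rose by 1.77 in WT and 1.93 in Nlrx1-/-, Mid1, a microtubule-bound ligase, by 0.54 and 1.01, and Mid2 was not called.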

How the data were processed

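RNA of 16 astrocyte cultures was sequenced without strand information after poly-A capture. The sample labels gave each culture's condition and replicate number. A replicate number within a genotype was read as a litter, following the design text and the study's formula. The authors quantified transcripts with Salmon 1.7.0 against GRCm39 and deposited an expected count and a TPM per transcript in each library. The authors also deposited per gene a CPM signal (tximport counts scaled by length, with low genes removed and TMM factors applied to the library sizes) and its log2 with a small prior count, the log2 CPM used here.

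All 16707 genes were fitted with limma 3.58.1 (intensity trend, Benjamini-Hochberg adjustment, threshold 0.05) in R 4.3.3. Responses and the interaction used litters as blocks within genotype, following the study's formula. The genotype comparisons used a model with 1 mean for each of the 4 conditions and no litter term. Both wells of a litter therefore counted as independent when the spread for these comparisons was estimated. The deposited log2 CPM was the main measure because transcripts without a paired symbol lower the counts of some members. Of 129698 transcripts, 106440 were paired with a gene, covering 96.7% to 97.3% of the reads of a library. Expected counts summed over these transcripts, and rounded for DESeq2, were tested with edgeR 4.0.16 and DESeq2 1.42.0 as alternatives. The other alternatives changed the size factors, the count filter, the pseudocount, a filter on low values, the scaling, the trend, library weights, the block, the libraries fitted and the litters included. Depth was 27259420 to 43752903 read pairs per library, with a median of 35554625. The standard errors hold the spread between litters pooled over both genotypes, so they do not show where 1 genotype varies more.

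The pairing by litter, which the design text states, was checked on log2 CPM centered by condition: across genes, Pearson's r was 0.07 to 0.35 within litters, and its median was -0.05 between litters of 1 genotype. The members, the gene lists and the tests were chosen with earlier results of these data known. Named with values are the induced and interferon-linked members, those with a called decrease of at least 1, those called between genotypes, the most abundant overall and among the flat ones, and those at the edge of the induced rule. Names added after their values were seen are Trim11, Trim16, Trim17, Trim23, Trim24, Trim33, Trim41, Trim47, Trim59 and Trim72. Promoter sequences are from RefSeq (GRCm38.p6) and positions from GENCODE M39 (GRCm39). Sums and plots were made with Python 3.11.15, pandas 2.3.3, numpy 2.4.6, scipy 1.17.1 and matplotlib 3.10.9. The values of 1 marker and of 1 listed gene that is no TRIM member are not reported here.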

Additional observations from a re-analysis of the deposited data

Results flagged for a closer look

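Some Trim genes outside the log2 CPM table had reads in treated libraries and 0 reads in all 8 vehicle libraries. Trim30c, a neighbor of Trim30a, had 61 reads over the 8 LPS + IFNγ libraries, with a read in all 8 of them. Trim30b had 10 reads in 3 of them, and Trim55, a muscle gene of the COS box group, had 10 reads in 5 of them. Trim30b and Trim30c are close copies of Trim30a, so the assignment of these reads is uncertain.

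A single library stood apart from the other 3 of its condition in 5 of 100 groups tested, and chance alone flags about 5% of groups. The Nlrx1-/- vehicle library of litter 2 was high in Trim28 (8.46 log2 CPM) and that of litter 1 was high in Trim7 (2.21 log2 CPM). The Nlrx1-/- vehicle library of litter 4 was high in Trim69 (-2.49 log2 CPM), where the other 3 were at the lowest value of the table. With 3 tied libraries the rule flags any other value, so the 5% does not apply to that group. In treated Nlrx1-/- cultures litter 3 was high in Trim34b (3.97 log2 CPM) and low in Trim5 (2.06 log2 CPM).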

How the results depend on the processing

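Of 43 results for named members, 32 kept their direction and call under every alternative run, 10 lost the call under at least 1, and 1 reversed. That one was the response of Trim34b in Nlrx1-/- astrocytes, which was -0.50 with edgeR without a count filter, where few of its reads are counted. All 11 induced members met the rule in most settings; Trim34b was lost with each test on counts and Trim14 with a minimum mean log2 CPM of 1, which drops it. Leaving out 1 litter in turn gave 11 to 12 induced members, 15 to 19 members up and 6 down in WT, and 21 to 22 up and 7 to 8 down in Nlrx1-/-. With quantile normalization 12 members fell in WT. The interaction was called for 1 member with DESeq2 and for 0 to 2 with a litter left out (2 without Nlrx1-/- litter 3, Trim9 and Trim35). In vehicle, array weights called 2 members higher and 1 lower, and leaving out litters gave 0 to 1 higher and 0 to 4 lower, with 4 lower without Nlrx1-/- litter 3 and 1 higher without WT litter 1. With LPS + IFNγ, the members called higher in Nlrx1-/- numbered 5 with the filter on mean level, 6 with array weights, and 0 without the trend or with only the 8 treated libraries. Those called lower numbered 2 with DESeq2, 3 with array weights, and 0 with edgeR without a count filter, quantile normalization, no trend or only the 8 treated libraries. Leaving out 1 litter gave 0 to 10 higher and 0 to 5 lower, and the cause was not tested. With the replicate number as a block, 7 were higher and 4 lower, but no source ties same-numbered litters across genotypes and not every such pair deviated together (Pearson r across genes from -0.09 to 0.18, median -0.01). With 4 litters per condition and 0 to 58 reads for Trim6, Trim69 and Trim72, differences in these low members may go undetected.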
